A study of Mus musculus with 2 samples.

Results

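The 9 genes described here belong to the glucocorticoid axis: Hsd11b1, Nr3c1, Fkbp5, Tsc22d3, Zbtb16, Per1, Klf9, Mt1 and Mt2, out of 27998 genes in the count matrices of single cells from mouse muscle. They were chosen by name, and their UMIs (unique molecular identifiers, each standing for 1 captured mRNA molecule) were summed over the cells of each cell class and tissue. Glucocorticoids are steroid hormones whose action in a tissue depends on more than their level in blood. The enzyme 11β-hydroxysteroid dehydrogenase type 1, encoded by Hsd11b1, regenerates active hormone from its inert 11-keto form inside the cell, using NADPH that the partner enzyme H6pd supplies in the endoplasmic reticulum. The hormone binds the glucocorticoid receptor, Nr3c1, which leaves its chaperone complex, enters the nucleus and activates genes such as Fkbp5, Tsc22d3, Zbtb16, Per1 and Klf9. In skeletal muscle the hormone is best known for causing wasting of fibres, and the fibro/adipogenic progenitors (FAPs), the Pdgfra-positive mesenchymal cells between the fibres, are a place where it acts on matrix and fat formation.

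Single cells were prepared from the quadriceps and from the diaphragm of C57BL/6J mice, with 10 mice used in the experiment and the cells of several animals combined into 1 library per muscle. The mice carried no engineered allele and received no treatment according to the labels, and their age and sex are not given in the sources used here. The muscles were digested with collagenase B and dispase II at 37ºC, mononuclear cells were taken from a Lympholyte-M gradient and viable cells were sorted by light scatter, so muscle fibres were lost. With 1 library per muscle there was no replicate, no difference was tested, and a difference between muscles cannot be told apart from one between animal pools or between preparations.

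The matrices held 5159 barcodes from quadriceps and 2499 from diaphragm, with medians of 9719 and 11853 UMIs, and 5 barcode sequences occurred in both. After removal of barcodes under 1000 UMIs or above an upper limit set in each library, 5010 and 2430 cells were left. FAPs were taken as cells with at least 1 Pdgfra UMI and at least 50 Dcn UMIs, which gave 2339 cells (46.7%) in quadriceps and 2008 (82.6%) in diaphragm, with median depths of 10782 and 12572.5 UMIs. All 8 FAP markers reached 50 CPM (UMIs of a gene per 1000000 UMIs of nuclear-encoded genes) in both gated populations. No marker of lymphocytes, macrophages, endothelial cells or satellite cells reached 50 CPM in the gate. In the quadriceps gate 1 of 7 Schwann cell markers did, at 71.7 CPM, and in the diaphragm gate 1 of 6 mesothelial markers, at 96.6 CPM. Of 7 smooth muscle markers, 5 reached 50 CPM in the quadriceps gate and 0 in the diaphragm gate, with sums of 2321 and 69.3 CPM. Of 7 tenocyte markers, 4 reached 50 CPM in the quadriceps gate and 2 in the diaphragm gate, with sums of 599 and 1759 CPM. The other classes were clusters of ungated cells, named from marker lists. Each level below is a CPM with its exact 95% Poisson interval in brackets, and these intervals cover counting error only.

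Hsd11b1 (chr1:193221634-193264075, minus strand, GRCm38) was highest in satellite cell-like cells, NK cell-like cells and FAPs, and lowest in smooth muscle cell-like cells. In FAPs its level was 195 CPM [190 to 201] in quadriceps and 175 CPM [170 to 180] in diaphragm. Satellite cell-like cells, the Pax7-positive stem cells of muscle, had 307 CPM [272 to 345] from 200 cells of quadriceps and 178 CPM [106 to 282] from 20 cells of diaphragm. NK cell-like cells of quadriceps had 306 CPM [247 to 375] from 79 cells. The satellite and NK cell-like intervals of quadriceps overlap each other and lie above that of the FAPs, while in the diaphragm satellite cells and FAPs could not be separated. T cell-like cells followed with 58.2 CPM [40.7 to 80.5] in quadriceps and 53.2 CPM [33.7 to 79.8] in diaphragm.

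At the bottom of the order, smooth muscle cell-like cells of quadriceps held 10 Hsd11b1 UMIs in 1080 cells, or 0.743 CPM [0.356 to 1.37], and those of diaphragm held none in 36 cells. Tenocyte-like cells had 3.19 CPM [0.386 to 11.5] although their Dcn level was 146% of that in FAPs, and Schwann cell-like cells had 5.11 CPM [1.66 to 11.9]. Dcn, an abundant FAP transcript, is given beside Hsd11b1 as a measure of FAP RNA in the lymphocyte classes that follow. It is no such measure in tenocyte-like cells, whose Dcn level was above that of FAPs. NK cell-like cells carried Dcn at 1.58% of the FAP level and Hsd11b1 at 157% of it, and T cell-like cells carried Dcn at 0.510% and Hsd11b1 at 29.8% of the FAP level in quadriceps. In B cell-like cells of quadriceps Hsd11b1 was at 10.6% and Dcn at 0.734% of the FAP level.

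The share of cells with an Hsd11b1 UMI was compared with every cell thinned to 1000 UMIs. It was 15.1% of quadriceps FAPs (353 of 2339, exact binomial interval 13.7% to 16.6%), 14.0% of diaphragm FAPs (12.6% to 15.6%), 25.3% of NK cell-like cells (16.2% to 36.4%) and 23.5% of satellite cell-like cells (17.8% to 30.0%). In quadriceps smooth muscle cell-like cells it was 0 of 1080, which allows a share of up to 0.278% at that depth, by the limit of 3 counts. Without thinning the shares were 42.2% of quadriceps FAPs at a median of 10782 UMIs, 55.1% of diaphragm FAPs at 12572.5 UMIs and 0.833% of quadriceps smooth muscle cell-like cells at 14939 UMIs. The gene was unevenly spread among FAPs: the 234 quadriceps cells with most of it held 59.1% of its UMIs and the 201 diaphragm cells with most of it 49.0%, and the highest counts in 1 cell were 27 and 29.

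**Figure D1:**
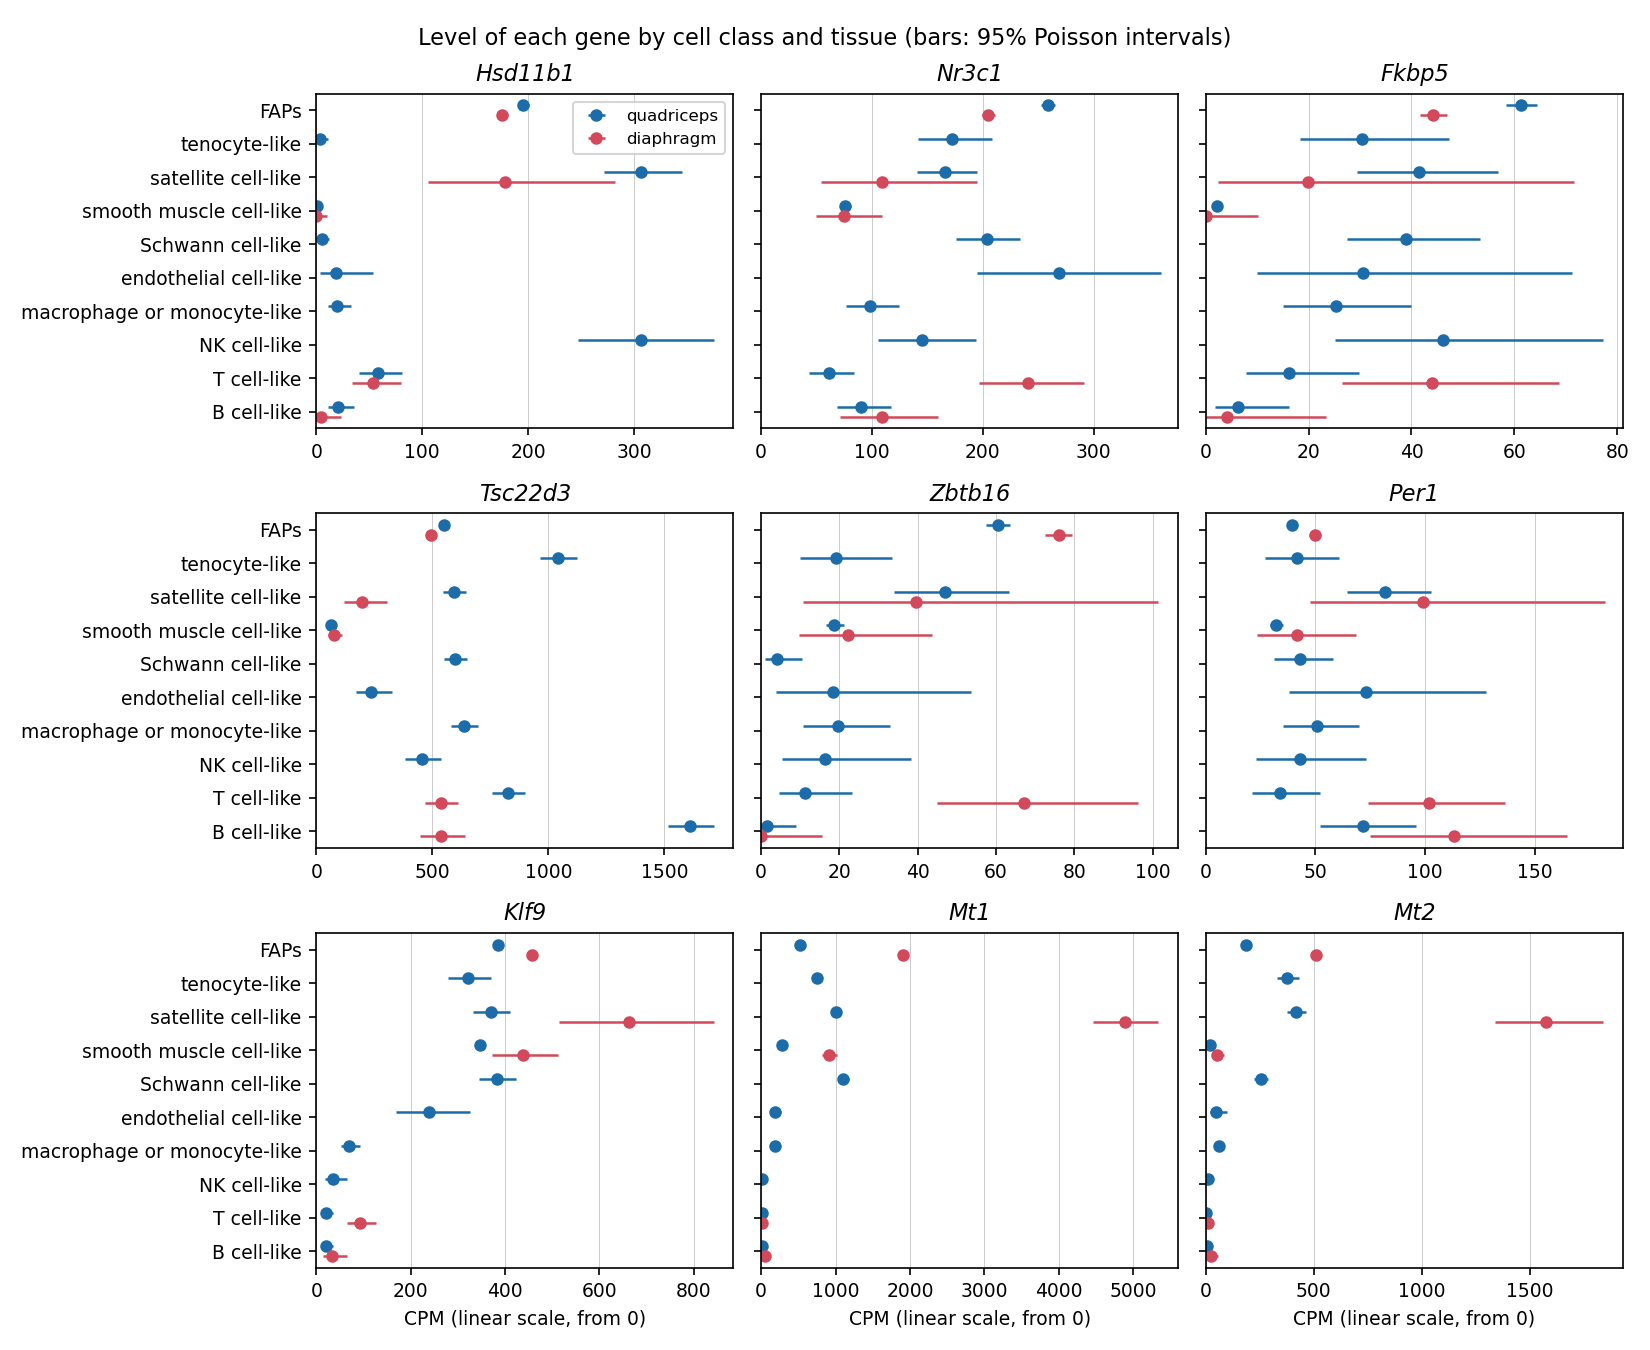
Levels of the 9 genes in each named class with at least 20 cells, in CPM on linear axes from 0, with quadriceps in blue, diaphragm in red and bars giving the 95% Poisson interval. Hsd11b1 stands at 195 and 175 CPM in FAPs, 307 and 178 CPM in satellite cell-like cells and 306 CPM in NK cell-like cells, while Klf9 is spread over the non-immune classes and Mt1 is higher in the diaphragm in FAPs, satellite cell-like and smooth muscle cell-like cells.

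Within the FAP gate, Hsd11b1 followed the subtypes of these cells. In the cluster led by Cxcl14, Mme and Apod the level was 475 CPM [460.0 to 491] in 766 quadriceps cells and 513 CPM [457 to 574] in 58 diaphragm cells. The cluster led by Nov, S100a4 and Anxa8 had 74.2 CPM [69.2 to 79.4] in quadriceps, and the one led by Sbsn, Dmkn and Krtdap had 17.0 CPM [12.8 to 22.0]. Most diaphragm FAPs, 1384 of 2008, fell into a cluster led by Has1 with 187 CPM [180 to 193], and another 515 into one led by Thbs4 with 122 CPM [114 to 131]. Hsd11b1 was itself among the leading genes of the Cxcl14 cluster, so these levels are a description.

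The genes most like Hsd11b1 over FAPs included Cxcl14 and Smoc2, both also among the leading genes of the Cxcl14 cluster. Likeness was measured as the Pearson r of log-transformed UMIs per 10000 over the 2339 quadriceps and, apart from them, the 2008 diaphragm cells, for the 8187 genes found in at least 10% of FAPs of each muscle. The cells of a library share its preparation, and r is a description with no test. Genes were ranked by the smaller of the 2 values, so a gene high in 1 muscle alone did not lead. The first 5, with r in quadriceps and diaphragm, were the chemokine Cxcl14 (0.607 and 0.482), the matrix protein Smoc2 (0.577 and 0.404), the growth factor signalling inhibitor Spry1 (0.436 and 0.391), the basement membrane collagen Col4a1 (0.567 and 0.389) and the eosinophil chemokine Ccl11 (0.459 and 0.377). The last 5, ranked by the value nearer 0, were Col14a1 (-0.49 and -0.41), Fn1 (-0.38 and -0.39), Cd248 (-0.46 and -0.33), Ifi27l2a (-0.35 and -0.33) and Sema3c (-0.41 and -0.32).

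H6pd, the enzyme that feeds NADPH to the Hsd11b1 protein, was the 1 gene of 14 among steroid-activating enzymes and receptor partners whose r with Hsd11b1 was at least 0.1 in both muscles, where 2.8% of all genes were. Its r was 0.349 in quadriceps and 0.201 in diaphragm, rank 80 among the 8187 genes. After regression on depth, mitochondrial share and immediate early genes these values were 0.344 and 0.185, and with cells thinned to 5000 UMIs 0.282 and 0.136. It was singled out after its values were seen, and at 32.8 CPM [30.6 to 35.2] in quadriceps FAPs and 42.5 CPM [39.9 to 45.1] in diaphragm FAPs it is a sparse gene.

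H6pd was graded with Hsd11b1 in both libraries. Among quadriceps FAPs thinned to 5000 UMIs, its level was 21.7 CPM [18.4 to 25.3] in the 1497 cells with no Hsd11b1 UMI, 35.6 CPM [26.3 to 47.3] in those with 1, 65.5 CPM [50.8 to 83.2] with 2 to 3 and 103 CPM [85.3 to 123] in the 241 cells with 4 or more. In the diaphragm the same groups had 35.1, 38.9, 58.9 and 87.0 CPM. Outside FAPs, satellite cell-like cells of quadriceps had 37.1 CPM [25.7 to 51.8] of H6pd, and those of diaphragm 19.8 CPM [2.40 to 71.6] from 2 UMIs. Endothelial cell-like cells of quadriceps had 30.5 CPM [9.90 to 71.2] of H6pd, with Hsd11b1 at 18.3 CPM [3.77 to 53.5]. The 2 enzymes parted in NK cell-like cells of quadriceps, where H6pd stood at 6.58 CPM [0.797 to 23.8] from 2 UMIs. Hsd11b2, which inactivates the hormone, had 3.23 CPM in quadriceps FAPs and 0.766 CPM in diaphragm FAPs, and Nr3c2, the mineralocorticoid receptor, had 6.03 and 4.52 CPM, and both were named for their role after their values were seen.

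The receptor Nr3c1 (chr18:39410545-39519421, minus strand) was present in every class with at least 20 cells. FAPs had 259 CPM [252 to 265] in quadriceps and 205 CPM [199 to 211] in diaphragm, and 86.7% and 87.4% of them held a UMI at full depth. Endothelial cell-like cells of quadriceps, a cluster led by the lymphatic genes Ccl21a, Mmrn1 and Lyve1, had 268 CPM [195 to 360], an interval that contains the FAP level. Schwann cell-like cells had 203 CPM [176 to 234], tenocyte-like cells 172 CPM [141 to 208] and satellite cell-like cells 166 CPM [141 to 194]. Smooth muscle cell-like cells had less, 75.9 CPM [71.3 to 80.7] in quadriceps and 74.8 CPM [49.3 to 109] in diaphragm. Unlike Hsd11b1, the receptor differed little among FAP clusters of quadriceps, from 188 CPM in the Sbsn cluster to 287 CPM in the Nov cluster. Its r with Hsd11b1 was 0.037 in quadriceps and -0.011 in diaphragm.

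Fkbp5 (chr17:28399094-28517527, minus strand), a receptor co-chaperone that the hormone induces and that lowers the receptor's affinity, was a gene of low level. FAPs had 61.3 CPM [58.3 to 64.4] in quadriceps and 44.2 CPM [41.6 to 46.9] in diaphragm. In quadriceps the next classes were NK cell-like cells with 46.1 CPM [25.2 to 77.3] and satellite cell-like cells with 41.5 CPM [29.3 to 56.9], and in diaphragm T cell-like cells with 43.9 CPM [26.5 to 68.6], which cannot be separated from FAPs. Smooth muscle cell-like cells were again near the bottom with 2.15 CPM [1.44 to 3.09] in quadriceps and no UMI in diaphragm.

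Zbtb16 (chr9:48654297-48836222, minus strand) encodes the zinc finger repressor PLZF, induced by glucocorticoids in mesenchymal cells and known as a master factor of innate-like T cells. Its level in FAPs was 60.5 CPM [57.5 to 63.6] in quadriceps and 76.0 CPM [72.6 to 79.5] in diaphragm. Both this gene and Fkbp5 had their highest level in FAPs in both muscles, 2 of the 9 members, against 6.43% of the 5084 genes that reached 50 CPM in some class of each muscle. In quadriceps Klf9 was also highest in FAPs, which made 3 of 9 against 6.17% of genes. In diaphragm 22% of genes were highest in FAPs. Fkbp5 did not reach 50 CPM in any named diaphragm class and so was not among the 5084 genes. Only Zbtb16 can thus be set against the 6.43% on like terms. For both genes, the interval of the next class overlapped that of FAPs in both muscles.

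The T cell-like class showed the other known site of Zbtb16. In a cluster led by Cxcr6 and Il7r its level was 77.2 CPM [31.1 to 159] in 19 quadriceps cells and 115 CPM [77.1 to 165] in 47 diaphragm cells. In the cluster led by Cd3d and Ms4a4b it had no UMI in 112 quadriceps cells and none in 38 diaphragm cells, with upper limits of 6.98 and 20.5 CPM. The 2 clusters made up different parts of the class in each muscle, which bears on every T cell comparison between muscles.

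Tsc22d3 (chrX:140539528-140600659, minus strand), which encodes the anti-inflammatory protein GILZ, was present in every class, and FAPs held a middle place among them in quadriceps. B cell-like cells of quadriceps had 1612 CPM [1514 to 1714] and tenocyte-like cells 1040.3 CPM [962 to 1123]. T cell-like cells of quadriceps had 826 CPM [756 to 900] and FAPs 551 CPM [542 to 560]. Macrophage or monocyte-like (636 CPM), Schwann cell-like (597 CPM) and satellite cell-like cells (595 CPM) lay between these, and NK cell-like cells (454 CPM) lay below FAPs. FAPs of diaphragm had 494 CPM [485 to 502], next to 537 CPM [448 to 639] in B cell-like and 537 CPM [470 to 610] in T cell-like cells. Smooth muscle cell-like cells had 64.1 CPM [59.9 to 68.5] and 77.6 CPM [51.6 to 112], so that Hsd11b1, Fkbp5 and Tsc22d3 all had their lowest level in this class in both muscles, among classes with at least 20 cells.

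Klf9 (chr19:23141226-23168134, plus strand), a Krüppel-like factor that answers glucocorticoids and thyroid hormone, divided the classes along another line. In quadriceps FAPs (385 CPM [377 to 393]), Schwann cell-like (383 CPM [346 to 424]), satellite cell-like (370 CPM [332 to 411]) and smooth muscle cell-like cells (347 CPM [337 to 357]) lay close together. The first 3 of these intervals overlap. Lymphocytes were far lower, with 20.6 CPM in B cell-like cells, 13 UMIs in 131 T cell-like cells and 36.2 CPM [18.1 to 64.7] in NK cell-like cells. In the diaphragm satellite cell-like cells had 664 CPM [514 to 843] and FAPs 458 CPM [449 to 466].

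Per1 (chr11:69095217-69109960, plus strand), a clock gene that the receptor also induces, was low and even. It ranged in quadriceps from 32.2 CPM [29.3 to 35.4] in smooth muscle cell-like to 81.8 CPM [64.4 to 103] in satellite cell-like cells, with FAPs at 39.4 CPM [37.0 to 41.9]. In diaphragm it ranged from 41.6 CPM [23.3 to 68.6] in smooth muscle cell-like to 113 CPM [74.7 to 165] in B cell-like cells, with FAPs at 49.6 CPM [46.9 to 52.5]. Most neighbours in this order overlap.

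The metallothioneins Mt1 and Mt2 encode small cysteine-rich proteins that bind zinc and copper and are induced by metals, through the factor MTF-1, and by glucocorticoids. The genes lie 5513 bases apart on chromosome 8 (Mt2 at chr8:94172664-94173568 and Mt1 at chr8:94179082-94180327, both on the plus strand). Their promoters, from 250 bases before to 50 after the RefSeq start site (GRCm38.p6), are shown because these 2 members differed together between the muscles. Capitals mark matches to TGCNCNC, on either strand, a loose pattern for the metal response element core in which N is any base. They also mark an inverted repeat of the kind that the glucocorticoid receptor binds, GNACA and TGTNC with 3 bases between them.
Mt1 promoter, chr8:94178839-94179138, plus strand: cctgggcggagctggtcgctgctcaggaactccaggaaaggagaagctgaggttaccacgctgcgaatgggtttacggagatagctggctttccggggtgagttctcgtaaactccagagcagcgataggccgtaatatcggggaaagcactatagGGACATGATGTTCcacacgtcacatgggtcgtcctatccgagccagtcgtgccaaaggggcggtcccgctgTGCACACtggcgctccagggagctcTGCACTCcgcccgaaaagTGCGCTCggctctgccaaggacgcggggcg
Mt2 promoter, chr8:94172368-94172667, plus strand: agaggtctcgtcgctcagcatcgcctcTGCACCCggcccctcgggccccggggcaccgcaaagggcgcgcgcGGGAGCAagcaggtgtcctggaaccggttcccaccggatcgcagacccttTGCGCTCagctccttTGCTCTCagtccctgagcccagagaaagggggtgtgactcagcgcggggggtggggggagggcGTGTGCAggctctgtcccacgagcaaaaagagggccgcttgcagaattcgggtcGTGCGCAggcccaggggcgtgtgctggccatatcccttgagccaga

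The Mt1 window held 3 matches to this loose pattern and 1 inverted repeat, at bases 157 to 169, and none of them overlapped. The Mt2 window held 6 matches to the pattern, 3 on each strand, and no inverted repeat. At least 1 match to TGCNCNC occurred in 51.0% of the 32851 mouse promoter windows of this length, 4 or more in 2.30%, and the inverted repeat in 0.475%. RefSeq windows of 7 of the 9 members were searched. Windows on chromosome 18, which carries Nr3c1, were left out of the search, and none was found for Zbtb16. The windows of Hsd11b1, Fkbp5, Tsc22d3, Per1 and Klf9 held between 0 and 2 matches to TGCNCNC and no inverted repeat. These are matches of letters and not measured sites.

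In quadriceps both metallothioneins were highest outside FAPs. Mt1 had 1107 CPM [1042 to 1175] in Schwann cell-like, 1005 CPM [941 to 1072] in satellite cell-like, 750 CPM [684 to 821] in tenocyte-like cells and 525 CPM [516 to 534] in FAPs. Mt2 had 418 CPM [377 to 462] in satellite cell-like, 378 CPM [332 to 429] in tenocyte-like, 254 CPM [223 to 287] in Schwann cell-like cells and 187 CPM [182 to 192] in FAPs. Lymphocytes had next to none: T cell-like cells of quadriceps held 8 UMIs of Mt1 and no UMI of Mt2 in 131 cells. In the diaphragm satellite cell-like cells had 4884 CPM [4462 to 5335] of Mt1 and 1575 CPM [1339.8 to 1839.8] of Mt2. Of their 20 cells, 1 held 140 of 493 Mt1 UMIs and 1 held 54 of 159 Mt2 UMIs, with medians of 3.5 and 2 UMIs a cell. The longest run of bases that annotated Mt1 and Mt2 transcripts share is 20 bases.

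Between the muscles, Mt1 and Mt2 were past 2-fold over all FAPs and the other 7 members were not. Mt1 was at 525 CPM in quadriceps and 1901 CPM [1884 to 1918] in diaphragm, a 3.62-fold difference or 1.86 on the log2 scale (interval 1.83 to 1.88). Mt2 was at 187 and 512 CPM [503 to 521], a 2.73-fold difference or 1.45 on the log2 scale. Of the 8 members that reached 50 CPM in 1 of the muscles, 2 thus passed 2-fold, both higher in the diaphragm, where 6.63% of 3440 genes passed in either direction, 3.49% higher in the diaphragm and 3.14% higher in the quadriceps. The median log2 difference was 0.05 over the 8 members and -0.10 over all genes tested. The FAPs of the muscles lay mostly in different clusters, and within the clusters they shared the differences were smaller or of the other sign. In the Cxcl14 cluster Mt1 was at 415 CPM in quadriceps and 370.5 CPM in diaphragm, and Mt2 at 122 and 96.9 CPM. In the Nov cluster Mt1 was at 531 and 666 CPM and Mt2 at 221 and 271 CPM, from 27 diaphragm cells. In the Has1 cluster, with 102 quadriceps and 1384 diaphragm cells, Mt1 was at 1540.5 and 2379 CPM and Mt2 at 263 and 638 CPM. There Mt2 was still past 2-fold.

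The members other than Mt1 and Mt2 did not reach 2-fold, with ratios of diaphragm to quadriceps between 0.721 for Fkbp5 and 1.26 for Per1. On the log2 scale the difference, diaphragm over quadriceps, was -0.16 for Hsd11b1, -0.33 for Nr3c1, -0.46 for Fkbp5 and -0.16 for Tsc22d3. It was 0.32 for Zbtb16, 0.33 for Per1 and 0.25 for Klf9, and these 3 turned to a median of -0.34, -0.10 and -0.12 when FAPs of like immediate early level were compared. Smooth muscle markers were higher in the quadriceps gate, as given above, and with gated cells of other classes' clusters left out the log2 difference was 1.84 for Mt1 and 1.43 for Mt2.

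**Figure D2:**
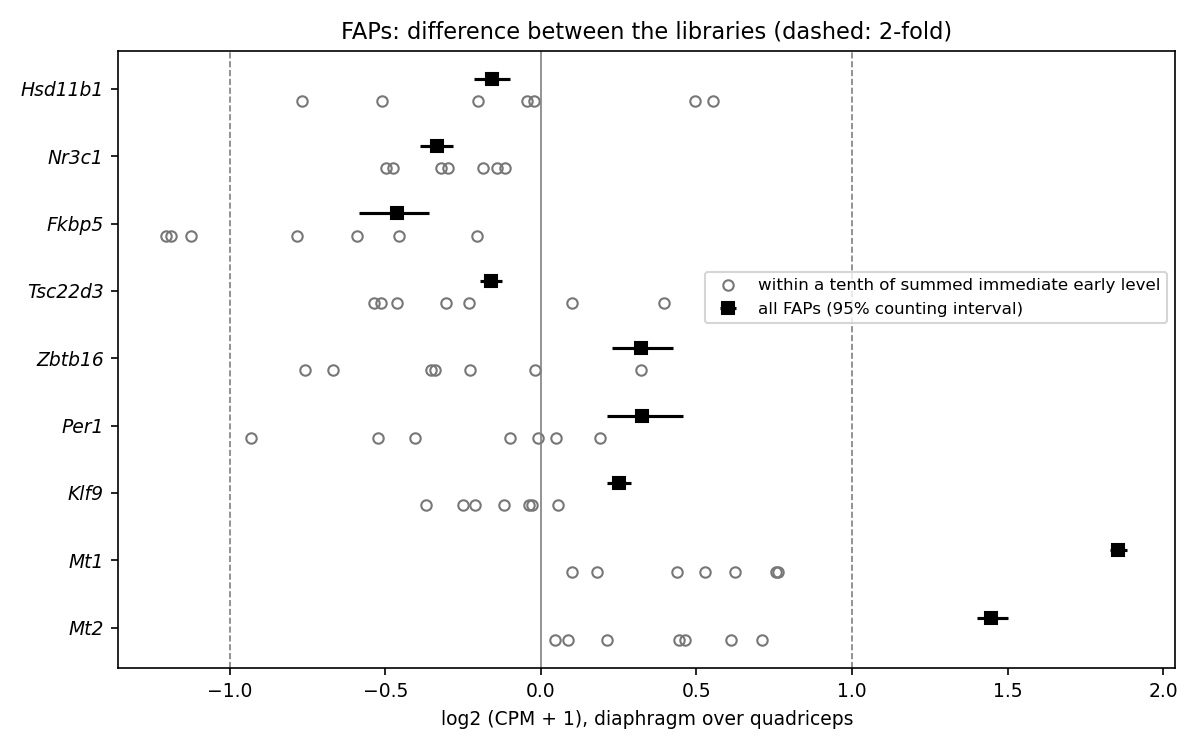
Difference between the muscles in FAPs for each gene, as log2 of (CPM + 1) in diaphragm over quadriceps, with black squares for all FAPs and their counting interval and open circles for each of 7 deciles of FAPs by summed immediate early level. The squares of Mt1 and Mt2 stand at 1.86 and 1.45, past the dashed 2-fold line, and their circles lie between 0.05 and 0.76.

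Immediate early genes, such as Fos, Fosb and Atf3, which cells switch on within minutes of a stimulus including tissue digestion, moved with the metallothioneins. All 15 of that list that reached 50 CPM were past 2-fold higher in diaphragm FAPs, with a median log2 difference of 2.77 and a summed level of 3525 CPM in quadriceps against 18523 CPM in diaphragm. Heat shock genes were higher in 8 of 10. Over FAPs of 1 library the r of Mt1 with the summed immediate early level was 0.173 in quadriceps and 0.361 in diaphragm, and that of Mt2 was 0.096 and 0.282.

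When FAPs were divided into deciles of summed immediate early level, 7 deciles held at least 20 cells of each muscle. FAPs under 1183 CPM or above 19354 CPM of immediate early genes lay outside them and were not compared. Over all diaphragm FAPs Mt1 was at 1901 CPM, above its diaphragm level in any of the 7 deciles. Within the 7 deciles, Mt1 was higher in the diaphragm in 7 of 7, by 0.10 to 0.76 on the log2 scale with a median of 0.53. Mt2 was higher there in 7 of 7, by 0.05 to 0.71 with a median of 0.44. Neither was past 2-fold in any decile. In decile 8 the levels of Mt1 were 1286 CPM in 38 quadriceps cells and 1377 CPM in 396 diaphragm cells. Fkbp5 was past 2-fold lower in the diaphragm in 3 of the 7 deciles, with a median of -0.78. The part of the immediate early genes in these differences was not tested.

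**Figure D3:**
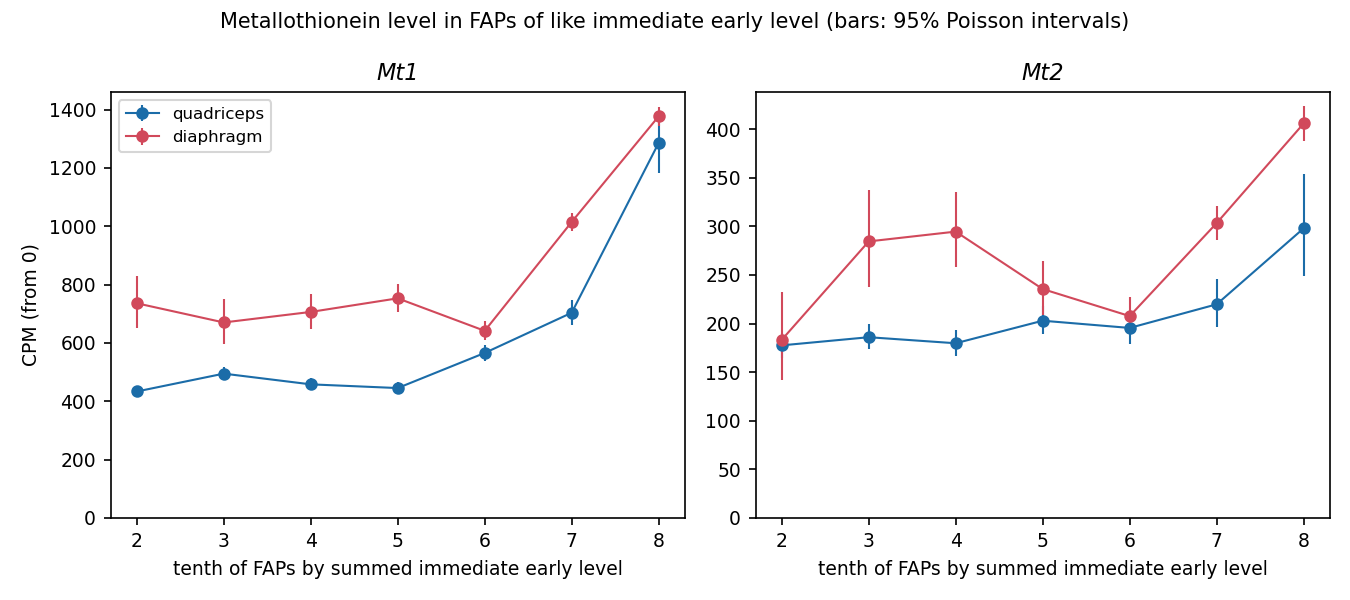
Mt1 and Mt2 in CPM, on linear axes from 0, in the 7 deciles of FAPs by summed immediate early level that held at least 20 cells of each muscle, with bars giving the 95% Poisson interval. Both curves are highest in decile 8, where Mt1 reaches 1286 CPM in quadriceps and 1377 CPM in diaphragm, against 433 and 736 CPM in decile 2.

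The metallothioneins also differed between the muscles outside FAPs. Smooth muscle cell-like cells had 279 CPM [270 to 288] of Mt1 in quadriceps and 917 CPM [821 to 1022] in diaphragm, and 20.2 and 52.7 CPM of Mt2. The log2 differences were 1.72 and 1.34, 2 of 5 members tested past 2-fold in that class, where 6.69% of 3350 genes passed, 4.84% higher in the diaphragm and 1.85% higher in the quadriceps. In satellite cell-like cells the log2 differences were 2.28 and 1.91, and Tsc22d3 was lower in the diaphragm by a log2 of -1.58, which made 3 of 7 members tested against 26.6% of genes, 9.76% higher in the diaphragm and 16.8% higher in the quadriceps, with 20 cells in the diaphragm. Without the top cell of each library, satellite cell-like cells had 941 and 3675 CPM of Mt1 and 388 and 1093 CPM of Mt2, both still past 2-fold. In smooth muscle cell-like cells the log2 differences were then 1.55 and 1.07, with Mt2 at 42.7 CPM in diaphragm and so under the level tested. Summed immediate early levels were also higher in the diaphragm in both classes, at 26831 against 5335 CPM in smooth muscle cell-like and 54178 against 20143 CPM in satellite cell-like cells.

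In lymphocytes other members differed. In B cell-like cells Tsc22d3 was at 1612 CPM in quadriceps and 537 CPM in diaphragm, a log2 difference of -1.58 (-1.86 to -1.32), and Mt1 was at 17.5 CPM from 11 UMIs and 58.8 CPM from 14 UMIs, so that 2 of 4 members tested passed 2-fold against 15.9% of 2938 genes, 6.4% higher in the diaphragm and 9.53% higher in the quadriceps. The Mt1 call rested on 1 diaphragm cell with 9 of the 14 UMIs: without the top cell of each library the levels were 16.0 and 22.1 CPM, and Mt1 was not tested. The summed immediate early level of B cell-like cells was 9808 and 9085 CPM. In T cell-like cells Nr3c1 was at 61.4 CPM [43.4 to 84.3] in quadriceps and 241 CPM [197 to 291] in diaphragm. Of 6 members tested, 4 were past 2-fold higher in the diaphragm there, Nr3c1, Zbtb16, Klf9 and Per1, against 13.9% of 2851 genes, where 3.68% were higher in the quadriceps and 17.5% passed in either direction. The summed immediate early level of T cell-like cells was 6882 CPM in quadriceps and 12047 CPM in diaphragm. Within the Cd3d cluster alone Nr3c1 was at 43.5 CPM [27.6 to 65.3] in 112 quadriceps cells and 238 CPM [173 to 321] in 38 diaphragm cells. Klf9 was at 13.2 and 22.2 CPM within that cluster, intervals that overlap, and at 66.2 and 143 CPM within the Cxcr6 cluster, where they overlap too.

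Among FAPs of 1 muscle, the question was whether cells rich in the activating enzyme were also rich in the receptor's targets. Tsc22d3 had an r with Hsd11b1 of 0.248 in quadriceps and 0.223 in diaphragm, rank 63 of 8187 genes, and Klf9 of 0.176 and 0.102. These were 2 of the 8 other members with r of at least 0.1 in both muscles, against 2.8% of genes, and Klf9 lay just inside the threshold. Mt2 was the 1 member at or under -0.1 in both, with -0.16 and -0.14, where 2.93% of genes were. Mt1 lay just outside with -0.12 and -0.07. Fkbp5 and Per1 had values of opposite sign, 0.079 and -0.04 for Fkbp5 and 0.085 and -0.05 for Per1, and Zbtb16 was near 0 in both.

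**Figure D4:**
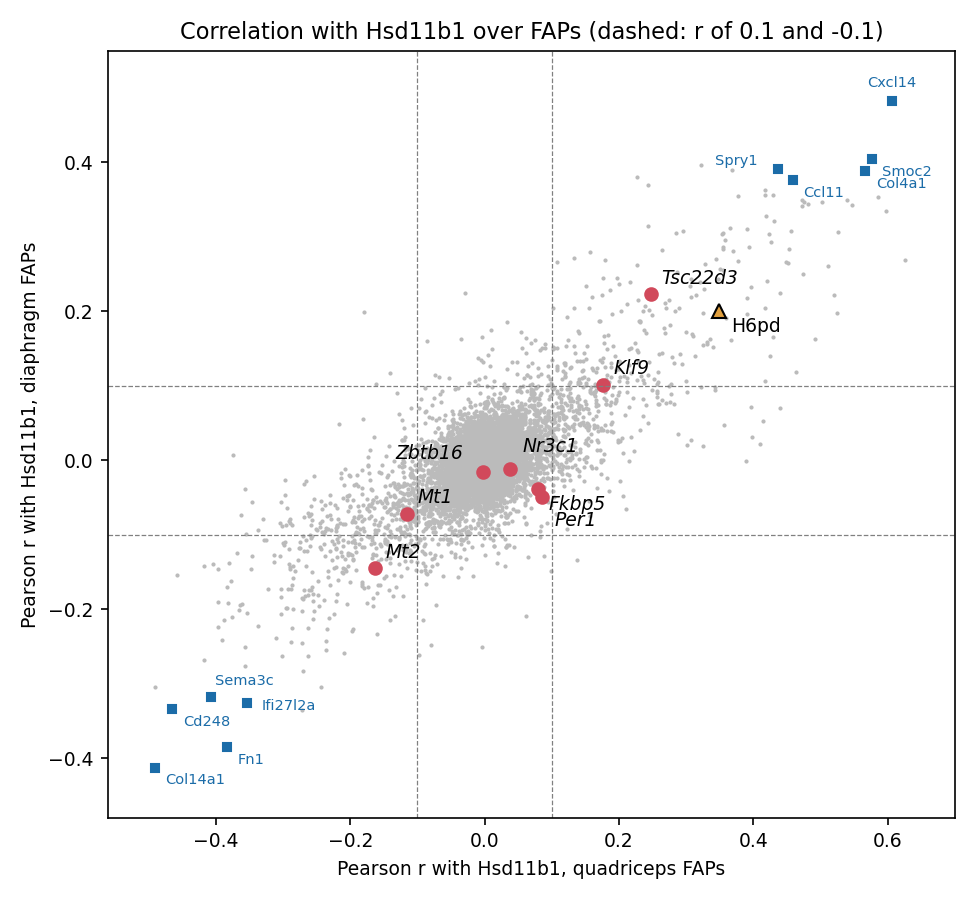
Pearson r with Hsd11b1 over quadriceps FAPs (horizontal axis) and diaphragm FAPs (vertical axis) for 8187 genes in grey, the other members in red, H6pd as a triangle and the 5 most and 5 least alike genes as blue squares, with dashed lines at 0.1 and -0.1. Tsc22d3 at 0.248 and 0.223 and Klf9 at 0.176 and 0.102 lie in the upper right, Mt2 in the lower left and the remaining members near the centre or on 1 axis.

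The same was seen as levels in FAPs thinned to 5000 UMIs, which left out 105 shallower cells of quadriceps and 41 of diaphragm. From cells with no Hsd11b1 UMI through those with 1 and 2 to 3 to those with 4 or more, Tsc22d3 was at 516, 619, 717 and 928 CPM in quadriceps and at 453, 578, 622 and 791 CPM in diaphragm. Klf9 went from 355 CPM [341 to 369] to 545 CPM [503 to 589] in quadriceps and from 448 CPM [431 to 466] to 578 CPM [524 to 637] in diaphragm. Both genes were highest in the cells with most Hsd11b1 in each library.

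Mt2 ran the other way, from 205 CPM [194 to 215] to 103 CPM [85.3 to 123] in quadriceps and from 551 CPM [532 to 570.1] to 341 CPM [300 to 386] in diaphragm. Mt1 was at 531 CPM in quadriceps cells with no Hsd11b1 UMI and at 356 CPM in those with 4 or more, but in diaphragm at 1919 and 2089 CPM. Fkbp5 was at 56.7 CPM [51.3 to 62.5] and 95.2 CPM [78.1 to 115] in quadriceps but at 42.8 CPM [37.7 to 48.5] and 38.7 CPM [25.7 to 55.9] in diaphragm. Nr3c1, Zbtb16 and Per1 had overlapping intervals between the first and the last group in each muscle, with Zbtb16 in quadriceps at 67.1 CPM [61.2 to 73.3] and 52.4 CPM [40.0 to 67.4]. Cells with 4 or more Hsd11b1 UMIs were also richer in Cxcl14. Its level went from 580 to 8319 CPM in quadriceps and from 221 to 2548 CPM in diaphragm. In diaphragm 152 cells had 4 or more Hsd11b1 UMIs, while the Cxcl14 cluster held 58 FAPs, so not all of them belonged to it. What the enzyme adds beyond subtype was not tested.

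**Figure D5:**
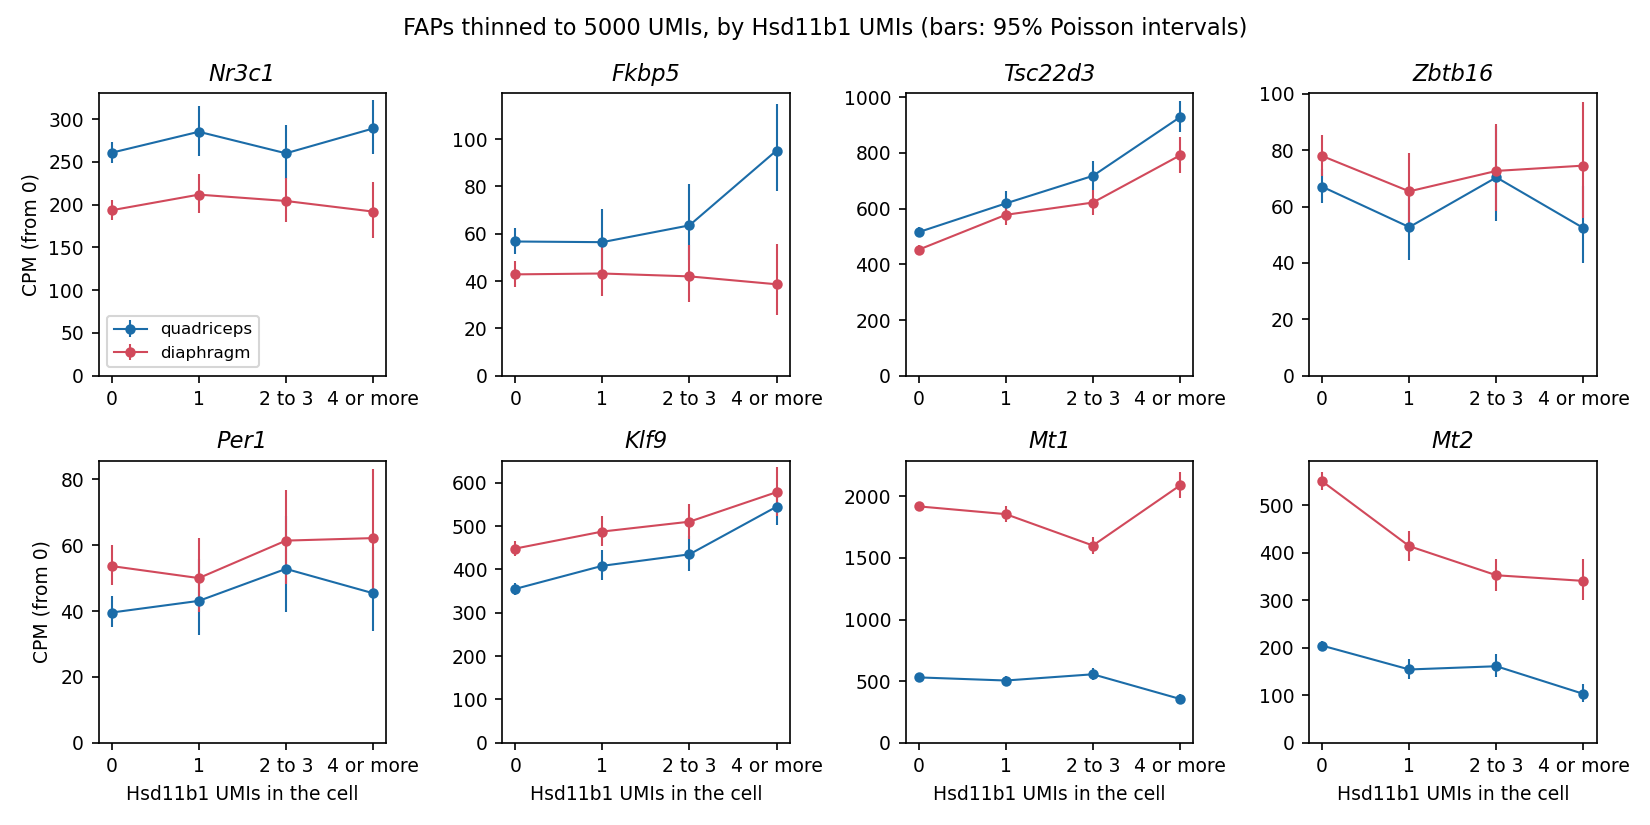
Levels of the other 8 genes in CPM, on linear axes from 0, in FAPs grouped by their number of Hsd11b1 UMIs after thinning to 5000 UMIs, with quadriceps in blue, diaphragm in red and bars giving the 95% Poisson interval. Tsc22d3 goes from 516 to 928 CPM and from 453 to 791 CPM, Klf9 from 355 to 545 CPM and from 448 to 578 CPM, and Mt2 goes from 205 to 103 CPM and from 551 to 341 CPM.

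In quadriceps the clusters followed the same line for Tsc22d3 and Klf9. There the Cxcl14 cluster had 756 CPM [736 to 775] of Tsc22d3, 490.0 CPM [474 to 506] of Klf9 and 88.3 CPM [81.7 to 95.2] of Fkbp5, all above the Nov cluster, which had 523 CPM [509 to 536], 360 CPM [349 to 371] and 51.1 CPM [47.0 to 55.5]. The Sbsn cluster, with least Hsd11b1, had 204 CPM [189 to 220] of Tsc22d3 and 230 CPM [214 to 247] of Klf9. In diaphragm the Cxcl14 cluster had 658 CPM of Tsc22d3 and 486 CPM of Klf9. The Thbs4 cluster there had less Hsd11b1 than the Has1 cluster but more Tsc22d3, 553 against 469 CPM, and the Klf9 level of the Has1 cluster, 471 CPM, was close to that of the Cxcl14 cluster. In quadriceps Mt2 stood at 122 CPM [115 to 130] in the Cxcl14 cluster and 221 CPM [212 to 230] in the Nov cluster. Mt1 was highest in the Has1 cluster, with 1540.5 CPM [1471 to 1612] in 102 quadriceps cells and 2379 CPM [2356 to 2402] in 1384 diaphragm cells, the cluster whose summed immediate early level was also highest in both muscles, at 12786 and 20125 CPM. It counted Mt1 among its leading genes.

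Among the members themselves, 4 of 36 pairs had an r of at least 0.1 in both muscles and 3 had one at or under -0.1. The share of all gene pairs past these limits was not counted, so these counts only describe the members. Mt1 and Mt2 were the tightest pair, with 0.508 in quadriceps and 0.710 in diaphragm. Tsc22d3 and Klf9 had 0.296 and 0.135, and each of them was the partner of Hsd11b1 in the other pairs. The negative pairs were Mt2 with Hsd11b1 and Tsc22d3 with both metallothioneins, at -0.15 and -0.21 for Mt1 and -0.12 and -0.25 for Mt2. Zbtb16 went with Mt1 and Mt2 in the diaphragm only by value, at 0.245 and 0.251, against 0.016 for Mt1 and a value near 0 for Mt2 in quadriceps, and the difference was not tested. Nr3c1 had no pair past 0.1 in both muscles.

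Other genes of the pathway were read from lists. Of 22 further genes known to be induced by glucocorticoids that reached 50 CPM in FAPs, 3 passed 2-fold, all higher in the diaphragm, where 3.49% of all genes were, and the median log2 difference was 0.31. They were the MAP kinase phosphatase Dusp1 (363 CPM in quadriceps and 1311 CPM in diaphragm), the stress protein Gadd45g (137 and 439 CPM) and the repressor Nfil3 (26.5 and 75.7 CPM). With Hsd11b1 over FAPs, 1 of 26 had an r of at least 0.1 in both muscles, the adipogenic factor Cebpb (0.257 and 0.103), where 2.8% of all genes had such an r. At or under -0.1 in both, where 2.93% of all genes were, lay 4 of 26, namely Anxa1 (-0.40 and -0.22), Klf4 (-0.26 and -0.18), Cdkn1a (-0.14 and -0.15) and Nfkbia (-0.13 and -0.11). These 5, and Sgk1, were named after their values were seen. Sgk1, a kinase induced by both corticoid receptors, had 82.0 and 97.0 CPM and an r of 0.096 and 0.039.

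Of 10 receptor partners and steroid enzymes tested between the muscles, 3 passed 2-fold, the chaperones Dnajb1 (a log2 difference of 2.56), Hsp90aa1 (2.12) and Hspa8 (1.27), all 3 also on the heat shock list and higher in the diaphragm, as were 3.49% of all genes. Of 3 clock genes that reached 50 CPM, Bhlhe40 passed with 1.13, also higher in the diaphragm. Among zinc and metallothionein genes apart from the members, 1 reached 50 CPM and it did not pass 2-fold, with a log2 difference of 0.67.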

How the data were processed

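UMI counts per gene and barcode from 1 library per muscle were used. The authors deposited these counts as raw matrices made from 10x Genomics Single Cell 3′ libraries with Cell Ranger 3.0.0 on mm10 (GRCm38), per the submitters' processing notes, which also name Seurat. They held 7658 barcodes in all. Kept were barcodes with at least 1000 UMIs and under the median plus 3 median absolute deviations of log10 UMIs. No limit on mitochondrial UMIs was set, since smooth muscle cells had a median of 17.0%; a limit of 5% leaves 2171 and 1662 cells and was run as an alternative. Doublets were addressed by the upper limit and, as an alternative, by Scrublet, which called 104 quadriceps and 3 diaphragm barcodes (0.123%, too few to count as working there).

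FAPs were gated as stated. All cells of both libraries were clustered together on 2000 variable nuclear genes, 20 principal components, 20 neighbours and Leiden resolution 0.5 (scanpy 1.11.5, leidenalg 0.10.2). Ungated clusters were named where at least 3 fixed markers of a type were raised 2-fold. A marker of that type also had to be among the 10 leading genes, with no other type having more there. The number of components and the naming rule were set after the clusters were seen. In all, 2 clusters stayed unnamed, with 361 ungated cells in quadriceps and 102 in diaphragm. The 193 and 100 ungated cells of FAP clusters were left out. CPM came from UMIs summed per class and tissue over nuclear-encoded genes. A fold was called at 2 or more on log2 (CPM + 1) among genes with at least 50 CPM, and r at 0.1 or more. Fold and r steps were tested on simulated data.

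The members and lists were chosen with earlier results of these data known. Named were the members, the 5 genes with highest and lowest r, and up to 3 genes per list past 2-fold in a direction; others are stated as named after their values were seen. Alternatives were other gates, filters, scalings and correlations. FAPs matched on immediate early genes, 10 principal components, and classes without the top cell of each library for a gene were added after seeing the data. Positions are from GENCODE M21 and promoters from RefSeq. Cebpd, Iglc2 and Trbc2 of the lists and markers were not analysed here.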

Additional observations from a re-analysis of the deposited data

How the results depend on the processing

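With 1 library per muscle no replicate could be left out. No paired analysis was possible because the cells of several animals were combined in the 1 library of each muscle, and no result comes from a test. The count of 2 members past 2-fold in FAPs (Mt1 and Mt2) was 2 under 11 alternatives. Over those 11, Mt1 was at least 1.83 and Mt2 at least 1.40 on the log2 scale. The count was 0 by the median over deciles of the summed immediate early level, an alternative chosen after seeing the data. There the differences are 0.53 and 0.44, and that of Fkbp5 is -0.78. That median covers only the FAPs of 7 deciles. The count of 2 members correlated with Hsd11b1 was 1 (Tsc22d3) with at most 5% mitochondrial UMIs, with Pdgfra at least 2 UMIs, with Spearman rho, with cells thinned to 5000 UMIs and with r given depth, mitochondrial share and immediate early genes, since Klf9 in the diaphragm then lay between 0.0880 and 0.0955. Tsc22d3 stayed between 0.178 and 0.263 in both muscles. The count of 2 members highest in FAPs was 1 with Dcn at least 100 UMIs (Zbtb16), with the mean of single-cell CPM (Fkbp5) and with each library clustered on its own (Fkbp5). No called value changed sign. For these changes the cause was not tested. Depth limits the small classes: 20 satellite cell-like and 36 smooth muscle cell-like cells stand for the diaphragm.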

Other observations

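Cells outside the FAP gate but in FAP clusters came from the same 2 libraries. In them Mt1 was at 480.3 CPM in 193 quadriceps cells and 1511 CPM in 100 diaphragm cells, and Mt2 at 200.3 and 469.7 CPM. Hsd11b1 also differed there, at 53.4 and 139.5 CPM, unlike in gated FAPs. Their summed immediate early level was 2689 CPM in quadriceps and 16973 CPM in diaphragm. Classes with under 20 cells in a muscle entered no comparison. Among them, 10 macrophage or monocyte-like cells of diaphragm had 703 CPM [573 to 855] of Mt1, next to 187 CPM [156 to 221] in 76 cells of quadriceps, and 10 endothelial cell-like cells had 2 UMIs of it. Neutrophil-like cells, 9 in quadriceps and 2 in diaphragm, held 14 and 9 UMIs of Tsc22d3. NK cell-like cells of diaphragm were only 6, with 3 UMIs of Hsd11b1 and a level of 107 CPM [22.1 to 313].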
